A study of Mus musculus with 12 samples.

Results

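The 10 genes described here encode the cohesin ring, its loader and the protease that opens the ring with that protease's inhibitor: Smc1a, Smc3, Rad21, Stag1, Stag2, Pds5a, Pds5b, Nipbl, Espl1 and Pttg1. They were taken by gene symbol from 38087 genes with an Ensembl identifier, and all 10 were found and passed the filter on low counts that kept 13889 genes. Messenger RNA was sequenced from colonic mucosa of 6 samples heterozygous for Sgo1 (Sgo1-/+), the gene for shugoshin 1, and of 6 wild type samples. Every mouse in both groups had been given azoxymethane, a colon carcinogen, at 4 mg/kg, dosed 2 times per week. Dosing began at 8 weeks of age and ended at 12 weeks, and the mucosa was collected at 9 months. Wild type here is thus carcinogen-treated mucosa. The labels do not state whether the replicates are different mice. The p-values therefore cover only the spread among the libraries, which may be technical.

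Cohesin is a ring of SMC1A, SMC3 and RAD21 that holds sister chromatids together after DNA replication and folds interphase DNA into loops. NIPBL, with MAU2, loads the ring onto DNA, and STAG1 or STAG2 binds RAD21 as a further subunit. PDS5A and PDS5B bind the loaded ring and help regulate its release and stability. At anaphase the securin PTTG1 is destroyed, and the separase ESPL1 it held in check cuts RAD21. Shugoshin 1 protects centromeric cohesin from early removal in mitosis, and the colonic crypt is a tissue with constant cell division.

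The libraries held 5414150 to 9936818 counts in genes with an Ensembl identifier. In 9 libraries 11.6% to 24.6% of counts fell on 11 genes whose transcripts resemble mitochondrial ones, whereas Sgo1-/+ replicate 3 had 41.7%, wild type replicate 3 had 42.6% and wild type replicate 5 had 40.7%. This share averaged 19.9% ± 11.3 in Sgo1-/+ and 28.2% ± 10.9 in wild type (SD, n = 6 each), with p = 0.186 by an exact two-sided permutation test. The summed level of the 12 epithelial markers was 18640 to 29804 CPM (counts scaled to library size) in Sgo1-/+ and 17346 to 29108 CPM in wild type. The 12 immune cell genes summed to 41.3 to 75.1 CPM in Sgo1-/+ and 63.2 to 109 CPM in wild type. The 8 smooth muscle genes summed to 21.6 to 40.6 CPM in Sgo1-/+ and 19.1 to 28.9 CPM in wild type, and the 7 fibroblast genes to 15.9 to 36.4 CPM in Sgo1-/+ and 15.9 to 45.1 CPM in wild type. For the 5 endothelial genes the sums were 6.81 to 14.5 CPM in Sgo1-/+ and 6.42 to 19.7 CPM in wild type. The 6 adipocyte genes ran from 5.68 to 116 CPM in Sgo1-/+ and from 20.8 to 75.5 CPM in wild type, and the 6 enteric neuron and glia genes from 4.31 to 44.1 CPM in Sgo1-/+ and from 7.18 to 69.1 CPM in wild type. No marker passed the edgeR test after adjustment. At an unadjusted p under 0.05, 1 of 12 epithelial and 2 of 12 immune genes tested were lower in Sgo1-/+, 1 of 4 adipocyte genes was higher, and 0 of 5 smooth muscle, 6 fibroblast, 3 endothelial and 2 neuron and glia genes reached it. Of all genes tested, 4.73% were lower and 4.31% higher at that p. No marker was at 0 in all libraries, and the part these cell types have in the results was not tested. In bulk tissue, fewer cells of a type and less RNA per cell cannot be told apart.

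The targeted gene Sgo1, listed as Sgol1, had 1.84, 2.38 and 2.77 CPM as the lowest, median and highest of the Sgo1-/+ libraries, against 1.49, 3.51 and 6.80 CPM in wild type. All 6 Sgo1-/+ libraries lay below the wild type median, and the groups overlapped. Its log2 change was -0.67 ± 0.32 (SE), with an edgeR adjusted p of 0.551, and it was -0.35 without wild type replicate 2, the library with the highest level. Sgo1 had 10 to 71 counts per library, so it is measured on few reads.

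The promoters of Espl1, Smc3 and Smc1a are shown, chosen after their values were seen because these genes had the smallest p-values of the 10. Each is the 250 bases before the start in RefSeq build GRCm38.p6, written 5′ to 3′ on the gene's strand, at chr15:102296043-102296292 (Espl1), chr19:53600146-53600395 (Smc3) and chrX:152016178-152016427 (Smc1a), all on the plus strand. The RefSeq promoter table used here matched 7 of the 10 genes. Capitals mark matches to TTTGAA, the core of the cell cycle genes homology region (CHR), and to CCAAT, and the E2F motif TTTCCCGC was searched as well, all on both strands.
Espl1: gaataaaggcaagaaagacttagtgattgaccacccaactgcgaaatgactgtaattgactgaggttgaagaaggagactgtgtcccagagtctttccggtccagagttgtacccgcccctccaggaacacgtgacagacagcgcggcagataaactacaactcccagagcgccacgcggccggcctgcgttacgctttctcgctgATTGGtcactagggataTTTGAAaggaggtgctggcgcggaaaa
Smc3: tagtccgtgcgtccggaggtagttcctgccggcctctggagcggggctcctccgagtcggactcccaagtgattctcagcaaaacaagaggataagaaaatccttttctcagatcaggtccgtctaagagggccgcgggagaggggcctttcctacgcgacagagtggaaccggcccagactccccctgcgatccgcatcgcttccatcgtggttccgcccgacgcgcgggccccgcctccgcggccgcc
Smc1a: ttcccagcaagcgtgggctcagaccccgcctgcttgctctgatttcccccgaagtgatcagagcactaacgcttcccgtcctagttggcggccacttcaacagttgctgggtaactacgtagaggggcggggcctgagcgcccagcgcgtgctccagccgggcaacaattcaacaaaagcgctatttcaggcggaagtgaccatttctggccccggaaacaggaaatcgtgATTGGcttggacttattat
The first base of the TTTGAA in Espl1 lay 27 bases before the start, and that of the ATTGG, the other strand of CCAAT, lay 44 bases before it. Pds5b had the same pair, at 32 and 66 bases, Smc1a had ATTGG at 19 bases, and Stag1 had ATTGG at 78 and TTTCCCGC at 17 bases. All distances are to the RefSeq start. For Pds5b (window chr5:150673577-150673826) and Stag1 (window chr9:100643198-100643447) the matches lie inside the gene as the deposited coordinates place it. The Pttg1 window (chr11:43425982-43426231) also lies inside its gene by those coordinates. None of these letters was in the windows of Smc3, Pds5a and Pttg1. Among 32851 windows of the same length, 16.0% held TTTGAA on either strand, 33.9% held CCAAT, 0.895% held TTTCCCGC and 5.55% held both of the first pair. The CHR and CCAAT matches in Espl1 did not overlap.

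The comparison of genotypes asks whether the levels of these transcripts differ in Sgo1-/+ mucosa. No gene of the 10 passed the edgeR quasi-likelihood test with Benjamini-Hochberg adjustment over 13889 genes, of which 0 were called (0%), the smallest adjusted p being 0.280. Limma-voom called 0 genes and DESeq2 called 40, with 0 of the 10 members among them. At an unadjusted p under 0.05, 1 of the 10, Espl1, was higher and 0 were lower, against 9.04% of all genes tested, 4.31% higher and 4.73% lower. The count was 4 without Sgo1-/+ replicate 3, when 18.2% of all genes reached that p (Espl1, Smc1a, Smc3 and Stag1), and 4 without wild type replicate 2, when 13.35% did (Espl1, Smc1a, Smc3 and Pds5b). With the mitochondrial-like share in the fit the 1 member was Stag2, lower in Sgo1-/+ (log2 change -0.24), and no longer Espl1 (0.56). Of the 10, 7 had a log2 change above 0, against 49.0% of all genes, and their median was 0.16, against -0.01 over all genes. With total-count scaling, which moved the median of all genes by 0.31, all 10 were above 0. No member had groups that did not overlap, as 0.346% of all genes did.

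**Figure D1:**
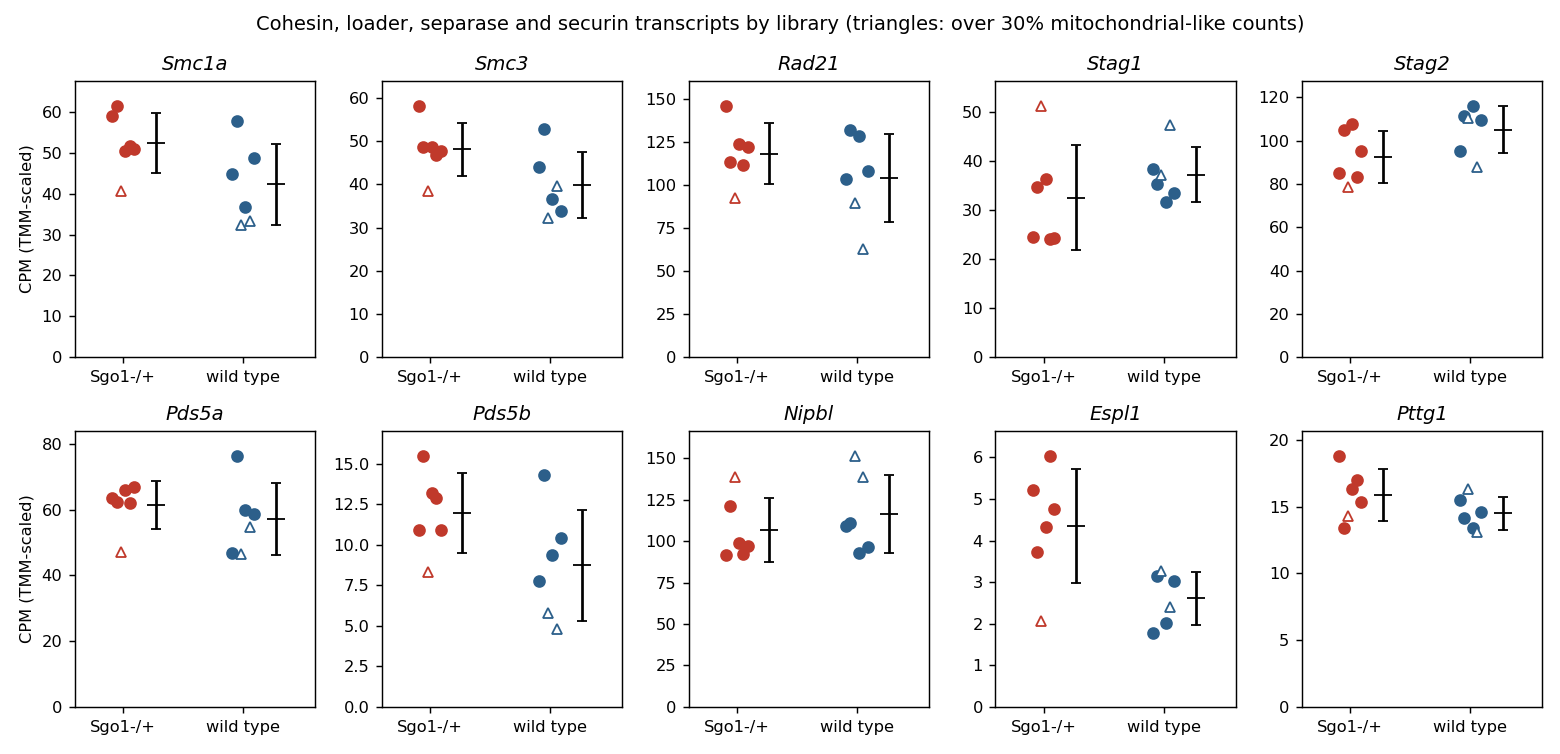
TMM-scaled CPM of the 10 transcripts in each library, Sgo1-/+ on the left and wild type on the right of each panel, with the mean and SD beside the points (n = 6 each). Open triangles are the 3 libraries with over 30% mitochondrial-like counts; 5 of 6 Sgo1-/+ libraries lie above every wild type library for Espl1, and the other panels overlap more.

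In the files (build mm10), Smc1a (ENSMUSG00000041133) lies at chrX:152016428-152062694 and Stag2 (ENSMUSG00000025862) at chrX:42149317-42277185. Espl1 (ENSMUSG00000058290) lies at chr15:102296293-102324356, Rad21 (ENSMUSG00000022314) at chr15:51962605-51991760 and Nipbl (ENSMUSG00000022141) at chr15:8291225-8444463. Smc3 (ENSMUSG00000024974) lies at chr19:53600398-53645833, Stag1 (ENSMUSG00000037286) at chr9:100597798-100958545 and Pttg1 (ENSMUSG00000020415) at chr11:43420250-43426251. Pds5a (ENSMUSG00000029202) lies at chr5:65615260-65697856 and Pds5b (ENSMUSG00000034021) at chr5:150673739-150810690.

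Espl1 encodes separase, the protease that cuts RAD21 at anaphase. The levels were 5.21, 3.72, 2.08, 4.32, 6.04 and 4.77 CPM in Sgo1-/+ replicates 1 to 6, against 1.79, 3.16, 3.27, 2.02, 2.40 and 3.03 CPM in wild type replicates 1 to 6. In all, 5 Sgo1-/+ libraries stood above the wild type maximum, and replicate 3, which is rich in mitochondrial-like counts, lay among the wild type. The log2 change was 0.75 ± 0.27 (SE; edgeR adjusted p = 0.527), with means of 4.36 ± 1.37 CPM in Sgo1-/+ and 2.61 ± 0.63 CPM in wild type (SD, n = 6 each). It rests on 9 to 61 counts per library, so it is measured on few reads. Without the 3 mitochondrial-rich libraries it was 0.94 ± 0.27 (edgeR adjusted p = 0.315), and all 22 alternatives gave a positive value.

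Pttg1 encodes securin, the inhibitor of separase. Its lowest, median and highest levels were 13.4, 15.8 and 18.8 CPM in Sgo1-/+ and 13.1, 14.4 and 16.3 CPM in wild type. The groups overlapped over most of their range, and the log2 change of 0.13 ± 0.12 did not pass (edgeR adjusted p = 0.743). Of the 10 genes its levels varied least between libraries, with a coefficient of variation of 11.2%, against 39.1% for Espl1.

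The 2 SMC proteins form the body of the ring. Smc1a had 40.6, 51.3 and 61.4 CPM in Sgo1-/+ and 32.4, 40.8 and 57.8 CPM in wild type as lowest, median and highest, with 2 Sgo1-/+ libraries above the wild type maximum. Its log2 change was 0.30 ± 0.15 (edgeR adjusted p = 0.553). Smc3 had 38.6, 48.2 and 58.1 CPM in Sgo1-/+ and 32.2, 38.2 and 52.9 CPM in wild type, and all 6 Sgo1-/+ libraries stood above the wild type median. Its log2 change was 0.27 ± 0.13 (edgeR adjusted p = 0.553). Rad21, the closing part of the ring and the substrate of separase, had 92.1, 118 and 146 CPM in Sgo1-/+ and 62.7, 106 and 132 CPM in wild type. Its log2 change of 0.18 ± 0.17 did not pass (edgeR adjusted p = 0.749), and was 0.07 without wild type replicate 5 and 0.28 without wild type replicate 2.

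Stag1 and Stag2, the alternative subunits, both had lower medians in Sgo1-/+. Stag1 had 24.1, 29.6 and 51.3 CPM in Sgo1-/+ and 31.7, 36.3 and 47.5 CPM in wild type. The highest Sgo1-/+ value was replicate 3, and 3 Sgo1-/+ libraries lay below the wild type minimum. Stag2 had 78.5, 90.1 and 107.5 CPM in Sgo1-/+ and 88.0, 110 and 116 CPM in wild type. Here 3 Sgo1-/+ libraries lay below the wild type minimum and none above the wild type median. The log2 changes were -0.20 ± 0.19 for Stag1 (edgeR adjusted p = 0.749) and -0.18 ± 0.11 for Stag2 (edgeR adjusted p = 0.623), and with total-count scaling both turned to positive values, at 0.08 and 0.14. Without Sgo1-/+ replicate 3 the change of Stag1 was -0.37.

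Pds5a and Pds5b encode the ring's paralogous regulators. Pds5a had 47.1, 62.9 and 67.0 CPM in Sgo1-/+ and 46.5, 56.7 and 76.3 CPM in wild type, with a log2 change of 0.10 ± 0.13 (edgeR adjusted p = 0.821). Pds5b had 8.31, 11.9 and 15.5 CPM in Sgo1-/+ and 4.80, 8.56 and 14.3 CPM in wild type, and 5 of 6 Sgo1-/+ libraries stood above the wild type median. Its log2 change was 0.44 ± 0.24 (edgeR adjusted p = 0.600). Nipbl, the loader, had 91.7, 98.0 and 139 CPM in Sgo1-/+ and 93.2, 110 and 152 CPM in wild type, with a log2 change of -0.13 ± 0.15 (edgeR adjusted p = 0.802). The change of Pds5a turned to -0.03 and that of Nipbl to 0.04 once the mitochondrial-like share was in the fit, and that of Nipbl to 0.20 with total-count scaling. Leaving out 1 library at a time gave 0.05 to 0.22 for Pds5a (without wild type replicates 1 and 2), 0.65 for Pds5b without wild type replicate 2, and, for Nipbl, -0.22 when Sgo1-/+ replicate 3 was left out and -0.03 when wild type replicate 3 was.

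The column names of 4 libraries, Sgo1-/+ replicates 5 and 6 and wild type replicates 1 and 6, carry a suffix whose meaning is not stated. The difference in mean log2 CPM, Sgo1-/+ minus wild type, was computed apart in these 4 and in the other 8, and each of the 10 genes kept its sign in both. In the 8 libraries without the suffix it was 0.42 for Smc1a, 0.27 for Smc3, 0.25 for Rad21, -0.08 for Stag1, -0.18 for Stag2, 0.02 for Pds5a, 0.56 for Pds5b, -0.13 for Nipbl, 0.42 for Espl1 and 0.13 for Pttg1. In the 4 with the suffix it was 0.13 for Smc1a, 0.29 for Smc3, 0.14 for Rad21, -0.56 for Stag1, -0.20 for Stag2, 0.30 for Pds5a, 0.39 for Pds5b, -0.12 for Nipbl, 1.12 for Espl1 and 0.10 for Pttg1. The difference of Espl1 was thus larger with the suffix, and with 2 libraries a genotype that contrast was not tested.

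**Figure D2:**
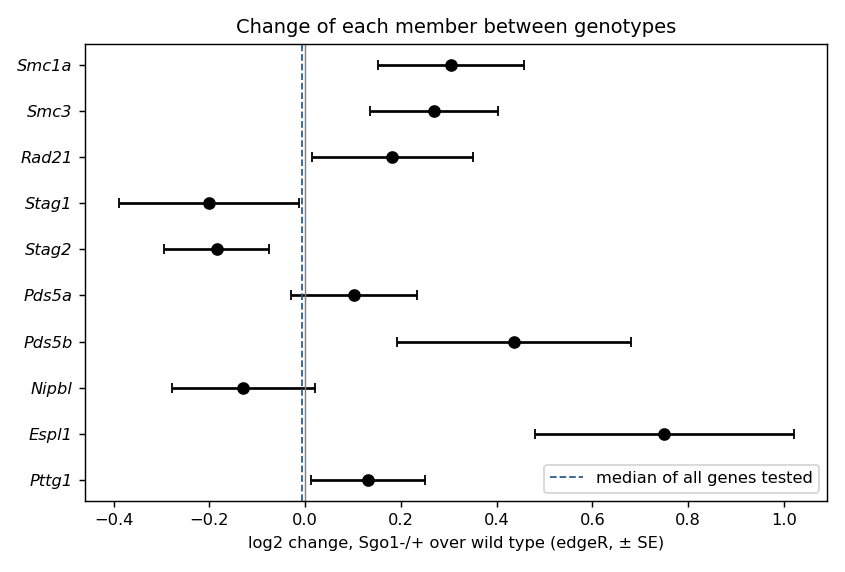
log2 change of each gene, Sgo1-/+ over wild type, with its SE from the edgeR fit; the dashed line is the median of the 13889 genes. Espl1 has the largest change, 0.75, and 7 of the 10 lie above 0.

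Per kilobase of exon, the levels fell into the same tiers in both genotypes. Rad21 stood highest with 27.9 ± 4.15 CPM per kb in Sgo1-/+ and 24.6 ± 6.08 CPM per kb in wild type (SD, n = 6 each). Nipbl had 11.3 CPM per kb in Sgo1-/+ and 12.4 in wild type, and Stag2 had 11.2 in Sgo1-/+ and 12.7 in wild type, a difference between the genes within their spread. Smc1a (9.07 in Sgo1-/+ and 7.33 in wild type), Smc3 (8.68 in Sgo1-/+ and 7.20 in wild type) and Pttg1 (7.93 in Sgo1-/+ and 7.26 in wild type) also lay within each other's spread. So did Pds5a, with 3.17 in Sgo1-/+ and 2.96 in wild type, and Stag1, with 2.76 in Sgo1-/+ and 3.17 in wild type. Pds5b had 1.21 in Sgo1-/+ and 0.887 in wild type, and Espl1 was lowest with 0.498 in Sgo1-/+ and 0.298 in wild type. Exon lengths are those of GENCODE M21, and transcripts in use may be shorter.

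Ratios between partners within a library depend little on how libraries are scaled, and 4 such ratios were tested by exact two-sided permutation of the genotype labels (924 arrangements), with p-values adjusted over the 4. The log2 ratio of Pttg1 over Espl1 was 1.80, 1.79, 2.65, 1.86, 1.46 and 1.63 in Sgo1-/+ replicates 1 to 6 and 2.95, 2.08, 2.24, 2.59, 2.33 and 2.18 in wild type replicates 1 to 6. In all, 5 Sgo1-/+ libraries lay below the wild type minimum and replicate 3 did not. The mean ratio was lower by 0.53 in Sgo1-/+ (exact p = 0.0411, adjusted p = 0.0866), so the adjusted value did not pass 0.05. It was -0.69 without Sgo1-/+ replicate 3 (adjusted exact p = 0.0173) and -0.74 without the 3 mitochondrial-rich libraries (adjusted exact p = 0.0317). Both leave out replicate 3, the 1 Sgo1-/+ library not below the wild type minimum, after which the groups no longer overlapped. The small p-values follow from that, and the 3 libraries were chosen after seeing the data, so neither adds support. Within libraries without the suffix the difference was -0.29 and within those with it -1.02.

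The log2 ratio of Pds5b over Pds5a averaged -2.35 ± 0.22 in Sgo1-/+ and -2.74 ± 0.39 in wild type (SD, n = 6 each), a difference of 0.39 (exact p = 0.0433, adjusted p = 0.0866). The lowest wild type values were -3.44 and -2.95, in wild type replicates 5 and 3, both mitochondrial-rich, and without the 3 such libraries the difference was 0.19 (exact p = 0.190). Stag2 over Stag1 averaged 1.55 ± 0.48 in Sgo1-/+ and 1.49 ± 0.35 in wild type (difference 0.05, exact p = 0.810). Without and with the suffix the Pds5b over Pds5a difference was 0.54 and 0.09. Smc1a over Smc3 averaged 0.12 ± 0.11 in Sgo1-/+ and 0.07 ± 0.26 in wild type (difference 0.05, exact p = 0.721).

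**Figure D3:**
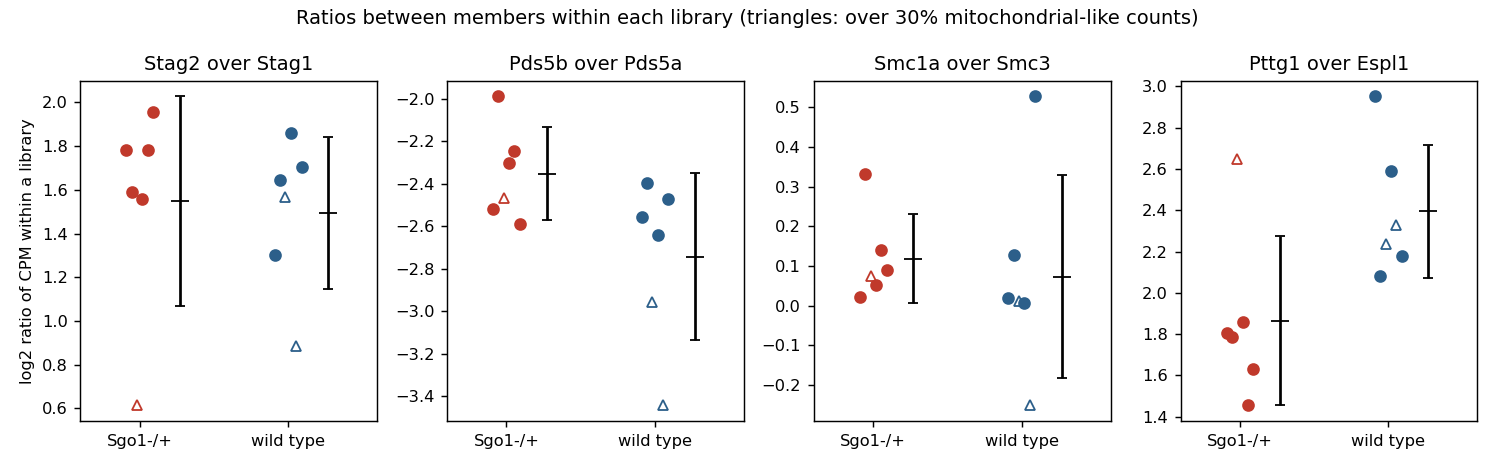
log2 ratio of CPM within each library for 4 pairs, Sgo1-/+ left and wild type right, with the mean and SD (n = 6 each). Open triangles are the 3 libraries with over 30% mitochondrial-like counts; the Pttg1 over Espl1 ratio of 5 Sgo1-/+ libraries is below the wild type minimum of 2.08.

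The level of several members differed between the 3 mitochondrial-rich libraries and the other 9. Nipbl was 139 to 152 CPM in the 3 and 91.7 to 121 CPM in the 9, and Rad21 was 62.7 to 92.1 CPM in the 3 and 104 to 146 CPM in the 9, so that neither overlapped. The share of all genes that separate the 3 from the 9 was not computed, so this is not a trait shown to be particular to these genes. Stag1 was 37.2 to 51.3 CPM in the 3 and 24.1 to 38.5 CPM in the 9, and Pds5b was 4.80 to 8.31 CPM in the 3 and 7.75 to 15.5 CPM in the 9. Within the 9 libraries none of the 10 genes was related to the share at an adjusted permutation p under 0.05, but 9 libraries leave such a test little power. The largest r were -0.75 for Espl1 (permutation p = 0.0244, adjusted p = 0.159) and -0.71 for Smc3 (permutation p = 0.0319, adjusted p = 0.159). Without the 3 libraries the log2 change, Sgo1-/+ over wild type, was -0.02 ± 0.11 (SE) for Nipbl, 0.08 ± 0.12 for Rad21, -0.26 ± 0.15 for Stag1 and 0.28 ± 0.20 for Pds5b.

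**Figure D4:**
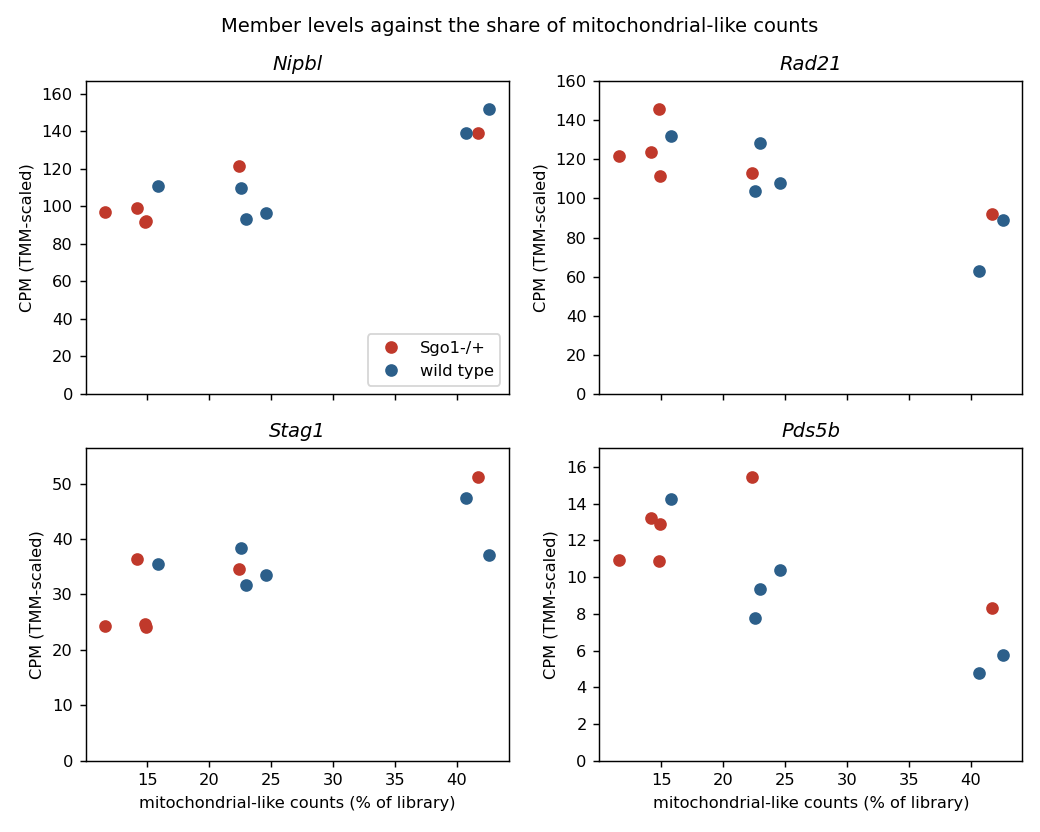
CPM of Nipbl, Rad21, Stag1 and Pds5b in each library against its percentage of mitochondrial-like counts, Sgo1-/+ in red and wild type in blue. The 3 libraries at 40.7% to 42.6% hold the highest Nipbl levels and the lowest Rad21 levels.

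Across the 12 libraries, the mean log2 CPM of 20 cycling cell markers was 4.08 ± 0.28 in Sgo1-/+ and 3.70 ± 0.40 in wild type (difference 0.38, exact two-sided permutation p = 0.0823). The libraries were cut into 2 sets of 6 at the widest gap in this level. The higher set, from 4.05 to 4.46, held 5 Sgo1-/+ libraries and wild type replicate 2. The lower set, from 3.32 to 3.68, held 5 wild type libraries and Sgo1-/+ replicate 3. Over all 12, 6 of the 10 members were positively related to this level at an adjusted permutation p under 0.05, namely Smc1a, Smc3, Rad21, Pds5a, Pds5b and Espl1. How many of all genes are so related was not counted. By rho, Espl1 did not pass (rho = 0.59, adjusted permutation p = 0.082), and the others named did. With the mitochondrial-like share regressed out, r fell from 0.75 to 0.38 for Smc1a, from 0.78 to 0.47 for Pds5a and from 0.68 to 0.19 for Pds5b. It fell from 0.66 to 0.40 for Espl1, from 0.62 to -0.01 for Rad21 and from 0.93 to 0.86 for Smc3. Within each set of 6 none of the 20 relations passed after adjustment, but 6 libraries give such a test little room to pass. Each set also spans a narrow range of the level it was cut on, which can weaken r. The values within sets therefore cannot decide whether a relation holds. For Smc3, r was 0.68 within the higher set and 0.79 within the lower set, whereas for Smc1a it was 0.31 and -0.25. For Espl1 it was -0.10 and -0.87, so its positive relation over all 12 was not seen within either set. The latter was the 1 relation of the 20 with an unadjusted exact permutation p under 0.05 (p = 0.0319, adjusted p = 0.639). In the 9 libraries that were not mitochondrial-rich 1 relation passed, that of Smc3 (r = 0.92, rho = 0.82, adjusted permutation p = 0.0041).

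Among the 45 pairs of members, 8 passed an adjusted permutation p under 0.05 over 12 libraries, 6 positive and 2 negative. The share of pairs among all genes that would pass was not counted, so this is not shown to be particular to these genes. The strongest was Smc1a with Pds5b (Pearson r = 0.89, rho = 0.87, permutation p = 8e-05 for r, adjusted p = 0.0036), with r = 0.77 without the 2 libraries farthest from the median. Smc1a with Smc3 had r = 0.80 and rho = 0.86 (adjusted permutation p = 0.03285), and r = 0.76 without the 2 farthest libraries. The other positive pairs were Smc1a with Rad21 (r = 0.72, rho = 0.67), Rad21 with Pds5b (r = 0.80, rho = 0.69), Stag1 with Nipbl (r = 0.77, rho = 0.82) and Pds5a with Pds5b (r = 0.74, rho = 0.83). The negative pairs were Rad21 with Nipbl (r = -0.76, rho = -0.66) and Stag1 with Espl1 (r = -0.76, rho = -0.66). By rho, 4 of the 8 passed after adjustment. Without the 2 farthest libraries the r of Smc1a with Rad21 was 0.43, so that relation rests on those libraries. None passed in the 9 libraries that were not mitochondrial-rich, nor in the 8 without the suffix. In those 9 libraries r was 0.72 for Smc1a with Pds5b, 0.73 for Smc1a with Smc3 and 0.76 for Pds5a with Pds5b. It was 0.65 for Stag1 with Nipbl and -0.72 for Stag1 with Espl1. For the pairs with Rad21 it was smaller in size, at 0.23 with Pds5b, 0.22 with Smc1a and -0.32 with Nipbl.

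Patterns of log2 CPM over the 12 libraries were compared with 10906 genes averaging 20 counts or more, symbols of predicted genes left out. The gene nearest in pattern was Cenpc1 for Smc1a (r = 0.96), Kif18b for Smc3 (r = 0.94) and Pcm1 for Rad21 (r = 0.95). It was Dnahc7b for Stag1 (r = 0.92), Vapb for Stag2 (r = 0.84), Tmtc3 for Pds5a (r = 0.95) and Zfp597 for Pds5b (r = 0.95). It was Psd3 for Nipbl (r = 0.95), Npat for Espl1 (r = 0.89) and Camsap3 for Pttg1 (r = 0.84). Next in rank were Cyth3 and Ehf, Aspm and Csrp1, Usp8 and Nckap1, Zcchc17 and Ncam1, Tlr2 and Dnaja2, Ndufaf6 and Cnot6l, Msh6 and Impdh2, Akap8l and Tmem234, Sst and Cep192, and Zdhhc4 and Zfp335, in the same order of members. These are descriptions, and the libraries also differ in depth and mitochondrial-like share.

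Of 18 other genes that load, acetylate, release or protect cohesin, 14 were tested, Sgo1 among them, and 0 passed after adjustment. At an unadjusted p under 0.05, 1 was lower in Sgo1-/+ and 0 were higher, against 4.73% lower and 4.31% higher of all genes. Of the 14, 9 were above 0, against 49.0% of all genes, with a median log2 change of 0.02. The 1 lower at that p was Hdac8, the deacetylase of SMC3, with 5.27 ± 1.58 CPM in Sgo1-/+ and 8.85 ± 5.27 CPM in wild type (SD, n = 6 each). Its log2 change was -0.75 ± 0.34 (edgeR adjusted p = 0.546). This change was -0.40 without wild type replicate 1, and in 13 of 22 alternatives its unadjusted p was not under 0.05, among them that one, limma-voom and the share covariate. The release factor Wapl (0.14 ± 0.12), Mau2 (-0.11 ± 0.14), the acetyltransferases Esco1 (0.05 ± 0.13) and Esco2 (0.04 ± 0.33), sororin Cdca5 (0.29 ± 0.31), Sgo2a (0.42 ± 0.29) and Haspin (0.17 ± 0.29) had the log2 changes and SE given. So had Ctcf (0.01 ± 0.11), the helicase gene Ddx11 (-0.10 ± 0.41), Chtf18 (0.01 ± 0.27), Chtf8 (0.07 ± 0.17) and the meiotic subunit Rec8 (-0.08 ± 0.44). Their adjusted edgeR p-values were all above 0.05. Stag3, Smc1b, Rad21l and Dscc1 were below the filter.

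Of 13 condensin and SMC5/6 genes tested, 10 had a log2 change above 0, against 49.0% of all genes, and the median was 0.24, against -0.01 over all genes. At an unadjusted p under 0.05, 2 were higher, against 4.31% of all genes: Ncapd2, a condensin subunit, with 22.2 ± 4.70 CPM in Sgo1-/+ and 14.1 ± 5.22 CPM in wild type (log2 change 0.65 ± 0.22, edgeR adjusted p = 0.524), and Smc6 (0.33 ± 0.12, edgeR adjusted p = 0.525). Ncaph had 0.66 ± 0.34 (edgeR adjusted p = 0.568). Of 18 anaphase promoting complex genes, which target securin for destruction, 15 were above 0 with a median of 0.10, and Fzr1, an activator of the complex, was the 1 at an unadjusted p under 0.05 (0.25 ± 0.11, edgeR adjusted p = 0.536). In 10 of 22 alternatives its unadjusted p was not under 0.05. Anapc5 had 0.25 ± 0.14 and Anapc13 -0.27 ± 0.18. Of the 20 cycling cell markers 19 were above 0, with a median of 0.36, and 7 were higher at an unadjusted p under 0.05, among them Mki67 (0.53 ± 0.20), Birc5 (0.50 ± 0.19) and Ccna2 (0.51 ± 0.19), each with an edgeR adjusted p of 0.527. Without the 3 mitochondrial-rich libraries, when 5.20% of all genes were higher at that p, 2 of the 20 cycling markers, 2 of the 13 condensin and SMC5/6 genes and 0 of the 18 anaphase promoting complex genes were. Mki67, Birc5 and Ccna2 were not among them.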

How the data were processed

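Messenger RNA libraries (TruSeq V2, MiSeq, per the labels' protocols) of 12 samples gave one file each, with 38592 rows. The authors deposited a raw column of expected counts, of which 69.6% of nonzero values were not whole (compared exactly), and these were rounded for tests. A second, normalized column of log2 values, also deposited by the authors, was not used. The submitters' processing notes list mm10 and DESeq. Not given in the sources used here are the aligner, the counter, the annotation release and whether strand was used, so overlapping antisense reads cannot be told apart. Exons of Stag2 and Pds5a share 28 and 119 to 255 bases with opposite-strand predicted genes. Rows without an Ensembl identifier, 505 in each file and 1.79% to 5.40% of counts, were left out, so totals count the other 38087 genes. The 30 pairs of replicates within groups held no identical pair, with a chi-square of at least 16.3 per degree of freedom.

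edgeR 4.0.16 in R 4.3.3 (glmQLFit, glmQLFTest, TMM, filterByExpr at 10 and 15 counts) was fitted to all 12 libraries, with Benjamini-Hochberg adjustment over 13889 genes and a threshold of 0.05. The SE of a log2 change is its absolute value over the square root of F. CPM were computed from the rounded counts and the TMM-scaled library sizes. DESeq2 1.42.0 and limma-voom (limma 3.58.1) were alternatives. Ratios were compared by exact permutation on log2 CPM with a prior count of 2, and correlations by 100000 permutations, for which the smallest possible p is 1e-05. Mitochondrial-like genes were found by blastn 2.17.0 at 80% identity and 50% coverage. The genotype fit was also tested on simulated counts of 13889 genes. These were drawn independently at the trended dispersion, with libraries differing only in depth and the set changes. The mitochondrial-rich libraries were thus not modelled, and the recovery is not the power of the real comparison. Recovery was 47% for 100 genes with a 1-unit log2 change and 99% for 100 with a 2-unit change, and 9 of its 155 calls were false.

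Members and lists were chosen with earlier results of these data known. Genes named are the 10 members, Sgo1, the measured genes of the other-cohesin list, the 3 smallest p of the condensin, anaphase promoting complex and cycling lists at a mean of at least 5 counts, and the 3 nearest genes per member. A gene of the other-cohesin list is not reported here and is left out of its counts. For the cell type marker lists this rule was applied as counts and summed levels only. The coordinates are those in the files, and sequences are from RefSeq GRCm38.p6.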

Additional observations from a re-analysis of the deposited data

Results flagged for a closer look

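Of 32 groups of 6 values tested, 5 held a library that stood apart from the others by Dixon's criterion; chance marks about 1 in 20 groups. Pds5a in Sgo1-/+ was 47.1 CPM in replicate 3, with the next at 62.1 CPM. The log2 ratio of Stag2 over Stag1 in Sgo1-/+ was 0.61 in replicate 3, with the next at 1.56. The log2 ratio of Pttg1 over Espl1 in Sgo1-/+ was 2.65 in replicate 3, with the next at 1.86. The mitochondrial-like share in Sgo1-/+ was 41.7% in replicate 3, with the next at 22.4%. The cycling marker level in wild type was 4.46 in replicate 2, with the next at 3.68. In 4 of the 5 the library is Sgo1-/+ replicate 3.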

How the results depend on the processing

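Each member's log2 change was recomputed under 22 alternatives, and none passed the adjusted threshold in any of them. Espl1 ran from 0.56 to 1.11 with adjusted p from 0.135 to 0.803. DESeq2 called 40 genes and a fit that includes the mitochondrial-like share called 1. Total-count scaling moved the median of all genes by 0.31 and turned the sign of Stag1 (0.077), Stag2 (0.14), Nipbl (0.20), Mau2 (0.23), Ddx11 (0.25), Rec8 (0.32) and Anapc13 (0.037). The share covariate left Stag2 and not Espl1 at an unadjusted p under 0.05 and turned Pds5a (-0.032), Nipbl (0.042), Mau2 (0.030), Ctcf (-0.032), Ddx11 (0.14), Chtf18 (-0.072) and Chtf8 (-0.11). The suffix term turned Chtf18 (-0.0058), and limma-voom turned Ddx11 (0.16) and Chtf18 (-0.026). Leaving out the 3 mitochondrial-rich libraries, chosen after seeing the data, turned Esco2 (-0.032), Ctcf (-0.079), Ddx11 (0.24), Chtf18 (-0.011), Chtf8 (-0.047), Rec8 (0.097) and the Smc1a over Smc3 ratio (-0.042), and it took Pttg1 over Espl1 to -0.74, past the adjusted threshold. It left 1 relation with the cycling level and 0 pairs, and turned the r of Nipbl with the cycling level to 0.068. Regressing the share out, also added later, turned the r of Rad21 to -0.0089 and of Nipbl to 0.59. In the libraries without the suffix 3 relations and 0 pairs passed, Stag2 over Stag1 was -0.10 and the r of Stag2 was 0.086; in those with it Smc1a over Smc3 was -0.16. Same-numbered samples correlated at -0.30 to 0.45, and for no number was the match the best one for both samples. The levels thus gave no sign of pairing, but this cannot show that the numbers do not pair the samples. With the replicate number as a block, 0 genes were called, 3 members (Smc1a, Smc3 and Pds5b, not Espl1) had an unadjusted p under 0.05 and Ddx11 turned to 0.10; no adjusted call of a member or ratio changed. Leaving out each library in turn gave 1 to 4 members at an unadjusted p under 0.05, the 4 being reached without Sgo1-/+ replicate 3 and also without wild type replicate 2, when 18.2% and 13.35% of all genes reached it. The ranges were -0.068 to 0.24 for Stag2 over Stag1, -0.019 to 0.14 for Smc1a over Smc3, -0.69 to -0.42 for Pttg1 over Espl1, 0.07 to 0.28 for Rad21, -0.37 to -0.11 for Stag1, 0.05 to 0.22 for Pds5a, 0.32 to 0.65 for Pds5b, -0.22 to -0.03 for Nipbl, -0.83 to -0.35 for Sgo1, -0.90 to -0.40 for Hdac8, -0.0043 to 0.15 for Esco1, -0.12 to 0.36 for Esco2, -0.029 to 0.086 for Ctcf, -0.32 to 0.17 for Ddx11, -0.10 to 0.16 for Chtf18, -0.026 to 0.17 for Chtf8 and -0.34 to 0.10 for Rec8. The causes were not tested. Counts of 9 to 61 limit Espl1.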
